A study of Rattus norvegicus with 12 samples.

Results

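The genes described here are chaperones of the endoplasmic reticulum (ER) and components of the unfolded protein response, in nucleus pulposus (NP) cells of the rat intervertebral disc. They were chosen by name, as 36 genes known for these functions. Of these, 35 were listed in all 3 deposited expression tables, which share 12899 genes, and Syvn1, an ER ubiquitin ligase, was not analysed here. All 35 passed the filter on low values (a mean of at least 10 normalised reads). The series compared rat NP cells with and without TNF-a, a cytokine of inflammation, and with and without knockdown of TonEBP. TonEBP, the product of Nfat5, is the factor that switches on osmoprotective genes in hypertonic surroundings such as the disc. All cells were primary NP cells of Wistar rats that had grown out of explants in DMEM with 10% FBS and antibiotics, so they were expanded cultures and not fresh disc tissue. All had been transduced with lentivirus, carrying either a control shRNA (PLKO) or an shRNA against TonEBP (shTon). They were then left untreated (CTR) or given TNF-a at 50 ng/mL for the 24 h before RNA collection (TNF). The 4 groups PLKO_CTR, PLKO_TNF, shTon_CTR and shTon_TNF held 3 RNA-seq libraries each, numbered as sets 1, 2 and 3. The sources used here do not give the age or sex of the animals, whether animals were pooled, or the number of shRNA sequences.

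The unfolded protein response adjusts the folding capacity of the ER to its load of new proteins. The HSP70 chaperone Hspa5 (BiP) binds unfolded chains and also the sensors Ern1 (IRE1), Eif2ak3 (PERK) and Atf6, and unfolded protein draws it away from them. IRE1 then splices the Xbp1 mRNA, PERK phosphorylates the translation factor eIF2 alpha, and Atf6 is cut to release a transcription factor, so that chaperone, disulfide isomerase and degradation genes are transcribed. Cells that secrete much collagen and proteoglycan, as disc cells do, depend on this machinery.

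Depth on listed genes was 7160042 to 18645538 reads a library. In limma, 5594 of 12310 genes (45.4%) differed among the 3 sets (adjusted p under 0.05). Summed levels of 12 skeletal muscle markers were 43806 to 99112 normalised reads in the libraries of set 1, 16595 to 30220 in set 2 and 171 to 258 in set 3. Of 11 markers of NP and notochord cells, T, Krt18, Krt19, Shh, Acan and Col2a1 were not analysed here, and the 5 with values (Krt8, Cd24, Car3, Foxf1 and Pax1) summed to 6645 to 13734 normalised reads in set 1, 2952 to 5244 in set 2 and 1454 to 2530 in set 3. These 5 did not share an order: Car3, a carbonic anhydrase that muscle also expresses, averaged 9344, 3569 and 17.3 in sets 1, 2 and 3, and the keratin Krt8 140.3, 123 and 1784. Markers of fibroblasts were high in every library (28034 to 185893 normalised reads summed over 7 genes), those of leukocytes low (190.2 to 733 over the 3 of 8 with values), and of 5 endothelial markers only Tek had values (6.05 to 37.7). In bulk RNA, fewer cells of a type and less RNA per cell cannot be told apart. The sources used here do not say what distinguishes one set from another. In the fits with the set as a block, p-values for TNF-a and knockdown measure how differences within a set vary over the 3 sets. That spread may be technical.

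Nfat5, the targeted gene, was at 685, 1363 and 1818 normalised reads in sets 1, 2 and 3 of PLKO_CTR and at 458, 457 and 288 in shTon_CTR. With TNF-a it was at 642, 1092 and 483 in PLKO_TNF and at 1695, 499.7 and 232 in shTon_TNF. It was lower with the shRNA in 5 of 6 pairs, and the library labelled shTon_TNF set 1 went against its label. Estimates that use the shTon_TNF group include that library, except those named as without set 1, which are given for some genes only. In limma the Nfat5 difference had a log2 fold change of -1.61 (SE 0.33, adjusted p = 0.0963) without TNF-a and of -0.26 (SE 0.44, adjusted p = 0.799) with it. The difference without TNF-a passed without set 1 (limma, -2.12, adjusted p = 0.0405), without set 3 (limma, -1.08, adjusted p = 0.00744) and in DESeq2 (-1.60, adjusted p = 5.56e-05). For it the authors' deposited table lists -1.19 (adjusted p = 4.57e-05), and with TNF-a -0.032 (adjusted p = 0.987). With TNF-a and without set 1 the limma value was -1.09 (adjusted p = 0.00941).

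Many genes of this response carry short promoter elements through which ATF6 and XBP1 act, and these letters are shown first. The genes were chosen as known parts of this response. A high share of matches therefore follows in part from the choice and is a description, not independent support. RefSeq promoter windows (assembly GRCr8, 250 bases before to 50 after each gene's start) matched 28 of the 36 genes, Selk by its synonym Selenok. Each window was searched on both strands for the ER stress element (CCAAT, then 9 bases of any kind, then CCACG), its second form (ATTGG, then 1 base of any kind, then CCACG) and the core TGACGTGG. The ER stress element was found in 8 of the 28 genes (28.6%) and in 22 of all 33469 windows (0.0657%). The second form was found in 3 of 28 (10.7%) against 17 windows (0.0508%), and TGACGTGG in 2 of 28 (7.14%) against 199 windows (0.595%). Any of these motifs was present in 12 of 28 genes (42.9%) and in 237 windows (0.708%). A match describes letters and is not evidence that a factor binds there. The 9 ER stress elements are given here 5′ to 3′ in the direction of the motif, with the fixed bases in capitals.
Calr (chr19:40213135-40213153, minus strand): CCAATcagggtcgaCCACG
Canx (chr10:35158069-35158087, minus strand): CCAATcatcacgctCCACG
Creld2 (chr7:121789239-121789257, minus strand): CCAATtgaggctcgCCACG
Derl3 (chr20:12766601-12766619, plus strand): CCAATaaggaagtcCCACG
Dnajc3 (chr15:102432534-102432552, plus strand): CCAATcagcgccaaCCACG
Hsp90b1 (chr7:23012347-23012365, plus strand): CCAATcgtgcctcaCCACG
Hsp90b1 (chr7:23012451-23012469, minus strand): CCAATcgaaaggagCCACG
Hspa5 (chr3:38452973-38452991, plus strand): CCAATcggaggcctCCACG
Xbp1 (chr14:84604558-84604576, plus strand): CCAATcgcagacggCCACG

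Of the 8 genes, Hsp90b1 held 2 copies. The spacer of 9 bases between the fixed ends differed in every copy. The second form, in which CCACG follows 1 base after ATTGG, is given in the same way for the 3 genes that held it.
Dnajb11 (chr11:91672800-91672810, minus strand): ATTGGcCCACG
Herpud1 (chr19:10614821-10614831, minus strand): ATTGGgCCACG
Hyou1 (chr8:53602694-53602704, minus strand): ATTGGcCCACG
Hyou1 (chr8:53602794-53602804, minus strand): ATTGGgCCACG

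Hyou1 held 2 copies of the second form, and its single TGACGTGG overlapped the first of them. TGACGTGG was otherwise found only in Dnajc10, among the genes described here. Hspa5, Creld2 and Hyou1 each held an element and were higher with TNF-a in PLKO cells (below), so the 250 bases before their start are given in full in the direction of the gene, with the matches in capitals.
Hspa5 (chr3:38452766-38453015, plus strand): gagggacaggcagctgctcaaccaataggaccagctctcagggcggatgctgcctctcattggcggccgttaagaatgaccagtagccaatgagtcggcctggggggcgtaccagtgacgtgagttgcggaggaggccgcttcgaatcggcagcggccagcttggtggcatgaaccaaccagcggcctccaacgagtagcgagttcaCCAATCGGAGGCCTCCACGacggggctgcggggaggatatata
Creld2 (chr7:121789134-121789383, plus strand): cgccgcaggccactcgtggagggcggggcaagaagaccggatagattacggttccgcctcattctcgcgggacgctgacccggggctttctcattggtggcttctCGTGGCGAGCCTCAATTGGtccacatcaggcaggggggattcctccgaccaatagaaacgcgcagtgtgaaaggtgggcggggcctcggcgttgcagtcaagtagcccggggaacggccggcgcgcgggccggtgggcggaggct
Hyou1 (chr8:53602632-53602881, plus strand): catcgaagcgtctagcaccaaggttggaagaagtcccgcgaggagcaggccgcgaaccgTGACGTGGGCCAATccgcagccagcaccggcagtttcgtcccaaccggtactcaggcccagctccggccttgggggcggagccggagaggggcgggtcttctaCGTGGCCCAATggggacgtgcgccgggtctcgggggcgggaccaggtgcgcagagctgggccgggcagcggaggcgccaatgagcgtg

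In the Hspa5 window the element lies close to the start, and in Creld2 it reads on the opposite strand. In Hyou1 the first capital stretch joins TGACGTGG and the second form of the element, and the second stretch is the other copy of that form.

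TNF-a in cells with the control vector changed 6 of the 35 ER genes. Hspa5, its exchange factor Hyou1, Creld2, the secreted factor Manf and the phosphatase subunit Ppp1r15a rose, by 0.51 to 0.91 on the log2 scale, and the exchange factor Sil1 fell. In limma with the set as a block, 6 of 35 genes (17.1%) passed at an adjusted p under 0.05, and 9.62% of all 12373 genes tested did. The 5 that rose were 14.3% of the 35, against 4.97% of all genes, and the 1 that fell stood against 4.65%. The median log2 fold change of the 35 was 0.21, with 26 above 0, and that of all genes tested was -0.014, with 48.3% above 0. Higher values with TNF-a in all 3 sets were seen in 22 of 35 genes (62.9%), and in 25.3% of all genes. Without set 2 only Creld2 passed (4.40% of all genes). Without limma's mean-variance trend none of the 35 did (0.445% of all genes), nor without the set as a block (0%).

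Levels of cell type markers also differed with TNF-a in PLKO cells. All 12 skeletal muscle markers had a lower mean with TNF-a, 5 of them lower in all 3 sets, and Myod1, a muscle transcription factor, passed in limma (means of 375 and 153 normalised reads). Their sum went from 55902, 20056 and 197 in sets 1, 2 and 3 to 43806, 17242 and 171. Of 7 fibroblast markers, 6 were lower in all 3 sets, among them Col1a1 (means of 21991 and 10225), and the collagen gene Col3a1 passed (means of 13434 and 4944). The fibroblast sum went from 70820.5, 156715 and 39665 to 56344, 92489 and 34046. All 5 NP markers had a lower mean, and Krt8 and Pax1 passed. The part of these shifts in the ER gene results was not tested.

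Among the HSP70 and HSP90 chaperones and their exchange factors, Hspa5 (ENSRNOG00000018294) was at 22108, 32927 and 18388 normalised reads in sets 1, 2 and 3 of PLKO_CTR and at 39399, 57331 and 25909.7 in PLKO_TNF. Every set was higher with TNF-a, yet the groups overlap, because set 2 was the highest and set 3 the lowest in both. The log2 fold change was 0.71 (95% interval 0.31 to 1.10, limma adjusted p = 0.0448). It stood at 0.65, 0.66 and 0.82 with set 1, 2 or 3 left out, where limma gave adjusted p = 0.0879, 0.0723 and 0.156. Hyou1 (ENSRNOG00000010944), an HSP70-like exchange factor for Hspa5, was at 5347, 10344 and 5710.2 in PLKO_CTR and 8348, 17001 and 7928 in PLKO_TNF. It too was higher in each set, with set 2 far above the others and overlapping groups. The log2 fold change was 0.61 (95% interval 0.33 to 0.89, limma adjusted p = 0.0269). With a set left out, limma gave adjusted p = 0.0507, 0.0693 and 0.0577, and with all 12 libraries in the fit 0.0641. Sil1 (ENSRNOG00000019826), the other exchange factor of Hspa5, went the opposite way, from 675, 814 and 693 to 560.0, 537 and 479 normalised reads. The 3 libraries with TNF-a were all below the 3 without it. Its log2 fold change was -0.47 (95% interval -0.73 to -0.20, limma adjusted p = 0.0461), and the call was lost without set 2 (limma, 0.225), without set 3 (limma, 0.107), with a pseudocount of 0.1 (limma, 0.0524) and in DESeq2 (0.0574). Hsp90b1, the HSP90 of the ER, had a log2 fold change of 0.41 (SE 0.15, limma adjusted p = 0.132).

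**Figure D1:**
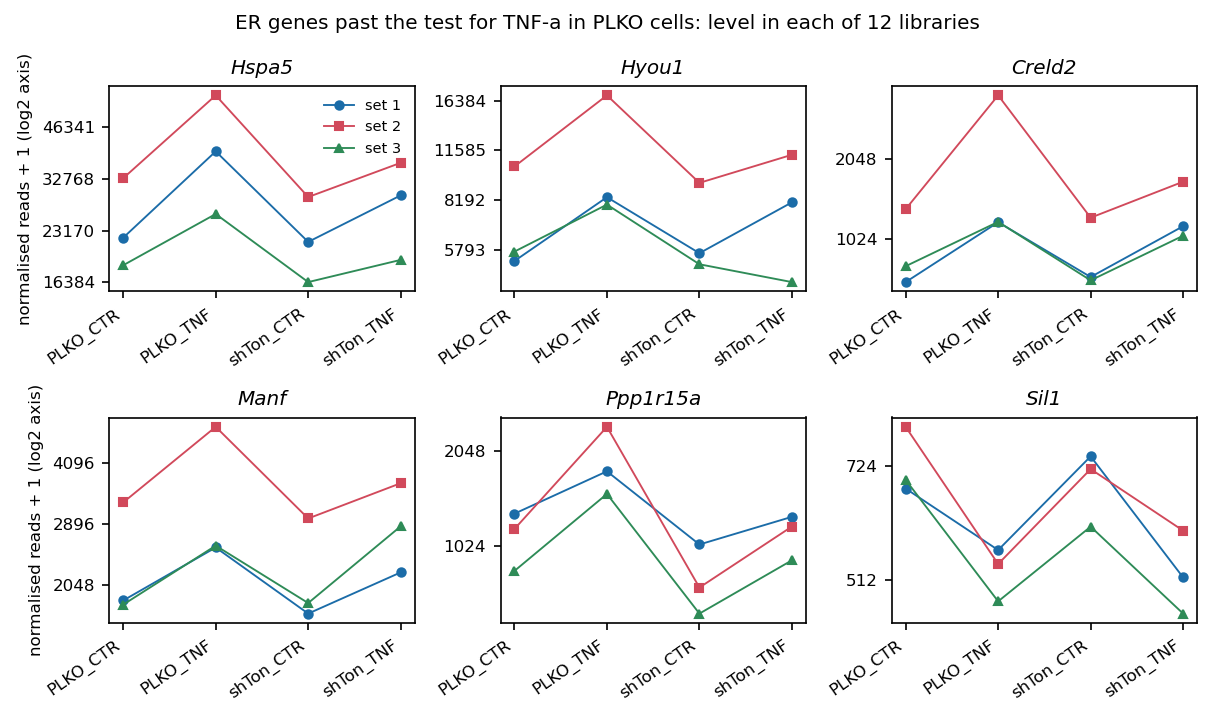
Normalised reads + 1 (log2 axis, a separate scale for each gene) of the 6 ER genes that passed for TNF-a in PLKO cells, in each of the 12 libraries, with a line joining the 4 libraries of a set. In the PLKO groups Hspa5, Hyou1, Creld2, Manf and Ppp1r15a are higher and Sil1 is lower with TNF-a in each of the 3 sets, and set 2 is the highest set for Hspa5, Hyou1, Creld2 and Manf in all 4 groups.

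The J-domain proteins, which deliver clients to Hspa5, and the partner protein Sdf2l1 had log2 fold changes of -0.011 to 0.47, and none of the 5 passed in limma with all 3 sets. Dnajb9 (0.47, SE 0.12, limma adjusted p = 0.0605) and Dnajb11 (0.43, SE 0.11, limma adjusted p = 0.0502) were nearest to the threshold. Sdf2l1 was at 0.35 (limma adjusted p = 0.144). It passed without set 1 (0.51, limma adjusted p = 0.0476), Dnajb9 without set 3 (0.59, limma adjusted p = 0.0327), and Dnajb11 with no filter on low values or with TMM scaling (limma adjusted p = 0.0495 and 0.0498). Dnajc10, a J-domain protein that also reduces disulfides, was at -0.011 (95% interval -0.25 to 0.23). In the authors' deposited table Dnajb9 (log2 fold change 0.44, adjusted p = 0.0427) and Dnajb11 (0.41, adjusted p = 0.0384) are both past 0.05.

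Creld2 (ENSRNOG00000004659), an ER protein with EGF-like domains that is known as a target of ER stress, was at 704, 1329 and 808 normalised reads in sets 1, 2 and 3 of PLKO_CTR and at 1185, 3576 and 1189 in PLKO_TNF. The rise was seen in each set and was largest in set 2 (within-set log2 ratios of 0.75, 1.43 and 0.56), and the groups overlap, since set 2 without TNF-a was above sets 1 and 3 with it. The log2 fold change was 0.91 (95% interval 0.51 to 1.31, limma adjusted p = 0.0245). The call held with any 1 set left out (limma, adjusted p = 0.0419, 0.0407 and 0.001003). The other 7 disulfide and prolyl isomerases and oxidases did not pass. P4hb, the disulfide isomerase that is also a subunit of collagen prolyl hydroxylase, had the log2 fold change 0.50 (SE 0.17, limma adjusted p = 0.107). For P4hb the authors' deposited table lists 0.48 (adjusted p = 0.00673). Ero1l, the oxidase that recharges these isomerases, was at -0.28 (95% interval -0.54 to -0.030), below 0 in each set. Pdia3, Pdia4 and Pdia6 were between 0.17 and 0.31. The lectin chaperones Calr and Canx, which hold glycoproteins during folding, were at 0.19 (95% interval -0.17 to 0.55) and 0.21 (95% interval -0.13 to 0.54).

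Manf (ENSRNOG00000014201), an ER protein that stressed cells secrete, was at 1877, 3276 and 1833 in PLKO_CTR and 2536, 5032 and 2562 in PLKO_TNF. Each set rose by a similar amount (log2 ratios of 0.43, 0.62 and 0.48), while the groups overlap because of set 2. Its log2 fold change was 0.51 (95% interval 0.28 to 0.74, limma adjusted p = 0.0268), and the call was lost without set 2 (limma, 0.109) or set 3 (limma, 0.0579).

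Of the sensors and signalling genes, Ppp1r15a (ENSRNOG00000020938), the subunit that directs a phosphatase to eIF2 alpha and so undoes the action of PERK, rose. It was at 1295, 1157 and 849.9 normalised reads in PLKO_CTR and at 1769, 2454 and 1497 in PLKO_TNF, and all 3 libraries with TNF-a lay above all 3 without. Its log2 fold change was 0.78 (95% interval 0.47 to 1.10, limma adjusted p = 0.0205), and without set 2 it was 0.63 (limma, adjusted p = 0.0514). The 3 sensors did not pass. Ern1, which encodes IRE1, was at 244, 299 and 161 and then 371, 459 and 188 with TNF-a. Its log2 fold change was 0.48 (95% interval 0.15 to 0.80, limma adjusted p = 0.0725) and 0.61 without set 3 (limma, adjusted p = 0.0359). Atf6 was at 1671, 2121 and 1889 and 1968, 2748 and 1453, higher in sets 1 and 2 and lower in set 3, with a log2 fold change of 0.076 (95% interval -0.29 to 0.44). Eif2ak3, which encodes PERK, was at 551, 1057 and 1049.7 and 566, 1061 and 886, a log2 fold change of -0.067 (95% interval -0.31 to 0.18). Xbp1 was at 1964, 3249.6 and 2994 and 2252, 4189 and 3390.4, higher in each set, with a log2 fold change of 0.25 (SE 0.098, limma adjusted p = 0.153). Gene-level reads do not show whether the Xbp1 mRNA was spliced.

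None of the 8 genes of ER-associated degradation passed, with log2 fold changes of -0.14 to 0.95 and a median of 0.038. The highest was Derl3, a channel component of this pathway, at 47.7, 81.6 and 16.6 normalised reads without and 100.02, 222 and 21.6 with TNF-a (log2 fold change 0.95, SE 0.26, limma adjusted p = 0.0641). It passed without set 3 (limma, 1.24, adjusted p = 0.00486) and in edgeR (1.11, adjusted p = 0.0339), and the authors' deposited table lists 0.85 (adjusted p = 0.0128). The other 7 (Derl1, Derl2, Edem1, Edem2, Herpud1, Sel1l and Selk) were between -0.14 and 0.17. The translocon subunits Sec61a1 and Sec61b, through which new chains enter the ER, were at 0.32 (95% interval 0.061 to 0.58) and 0.20 (95% interval -0.063 to 0.46). Genes with a promoter match had a median log2 fold change of 0.39 (12 genes, 3 higher), those whose window held none 0.17 (15 genes, 1 higher and 1 lower) and those without a RefSeq window 0.19 (8 genes, 1 higher). These subsets were not tested against each other. In their deposited table the authors list 9 of 35 genes (25.7%) as higher at an adjusted p under 0.05 and none as lower, where 11.8% of genes pass in either direction. DESeq2 with the set as a block called the same 9 (11.0% of all genes), and edgeR called 7 (9.74%).

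**Figure D2:**
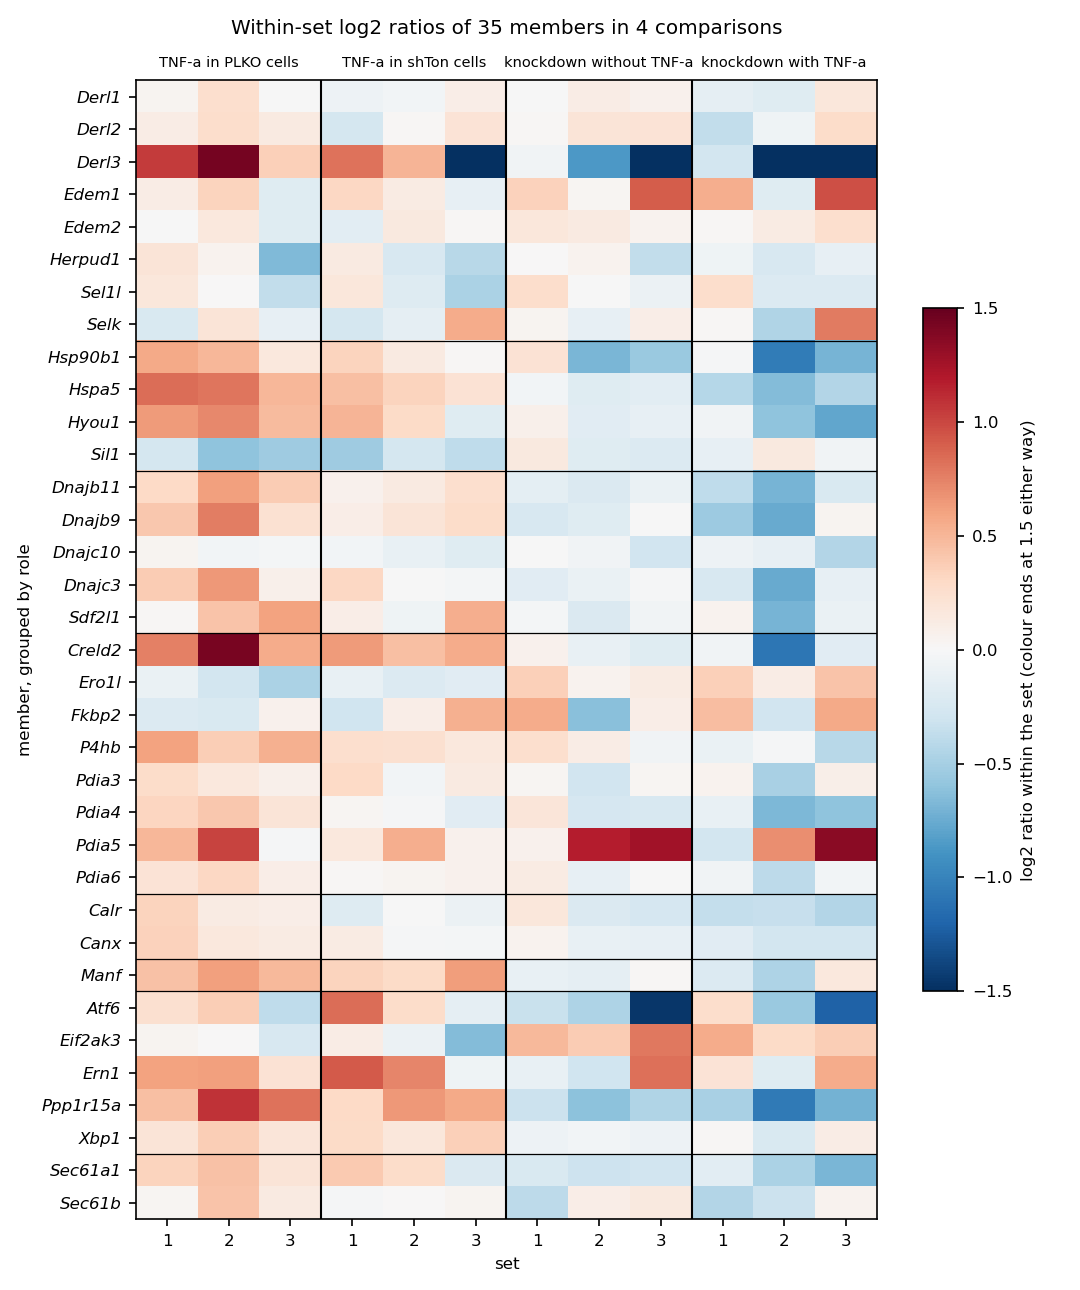
Log2 ratio within each set, of TNF-a to untreated or of shTon to PLKO libraries, for 35 ER genes grouped by role (rows, separated by thin lines) in 4 comparisons of 3 sets (columns); colour is red for higher and blue for lower and ends at 1.5 either way. Hspa5, Creld2, Manf and Ppp1r15a are red in each set under TNF-a in PLKO cells, and knockdown with TNF-a has its lowest median in set 2 (-0.35).

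The 35 genes together were given as a share of the reads on the 12899 genes listed in all 3 deposited tables. This share was higher in each set with TNF-a in PLKO cells, going from 1.32, 1.96 and 1.69% in sets 1, 2 and 3 to 1.69, 2.56 and 1.99%. In shTon cells it was 1.37, 1.81 and 1.60% without and 1.48, 1.97 and 1.67% with TNF-a. The share is a description, dominated by the genes with most reads, and carries no test.

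TonEBP knockdown in untreated cells went with small estimates for the chaperones and larger, uncertain ones for Derl3, Pdia5, Atf6 and Eif2ak3. None of the 35 genes passed in limma, where 0.113% of 12383 genes did. In limma 5 of the 35 had an unadjusted p under 0.05, as did 2108 of the 12383 genes, a larger share. DESeq2 called 1 of the 35 (Atf6; 3.22% of all genes) and edgeR none (0.145%). The median log2 fold change was -0.078, with 12 of 35 above 0, against 0.0074 over all genes. The 95% intervals of the folding factors bound what these libraries could hide: for Hspa5 -0.13 (-0.52 to 0.25), for Hyou1 -0.076 (-0.38 to 0.23), for Creld2 -0.078 (-0.36 to 0.20) and for Manf -0.080 (-0.35 to 0.19). In shTon_CTR, Hspa5 was at 21497, 29028 and 16426 normalised reads in sets 1, 2 and 3, and Hyou1 at 5647, 9227 and 5226. Manf was at 1742, 2990.1 and 1849 and Sil1 at 744, 716 and 601. Each of these sets of values overlaps that of PLKO_CTR. All 12 skeletal muscle markers had a higher mean in shTon_CTR (summed levels of 99112, 30219.7 and 258), with none past the limma threshold. Of 7 fibroblast markers, 4 had a higher and 3 a lower mean (median log2 fold change -0.24), and none passed. The fibroblast sum went from 70820.5, 156715 and 39665 in sets 1, 2 and 3 of PLKO_CTR to 107899, 185893 and 41085 in shTon_CTR. The part of these markers in the ER gene values was not tested. Hsp90b1 was at -0.34 (-0.83 to 0.14).

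Beside Derl3 and Pdia5, the estimates furthest from 0 were those of Atf6, Eif2ak3, Ppp1r15a and Edem1. Atf6 was at 1671, 2121 and 1889 normalised reads in PLKO_CTR and at 1322, 1545 and 687 in shTon_CTR. The 3 shTon libraries were all below the 3 PLKO libraries, set 3 by the most. The log2 fold change was -0.76 (95% interval -1.26 to -0.25, limma adjusted p = 0.156; DESeq2 adjusted p = 0.0390), and the authors' deposited table gives -0.62 (adjusted p = 0.0376). Eif2ak3 was higher in each set, from 551, 1057 and 1049.7 to 771, 1379 and 1810.2 (log2 fold change 0.55, 95% interval 0.25 to 0.85, limma adjusted p = 0.119). Ern1 was lower in sets 1 and 2 and higher in set 3 (226, 243 and 288 in shTon_CTR, log2 fold change 0.14, 95% interval -0.40 to 0.68). Xbp1 had nearly the same level, at 1869, 3154 and 2838 in shTon_CTR (log2 fold change -0.068, 95% interval -0.33 to 0.19). Ppp1r15a was lower in each set, at 1032, 752 and 621 (log2 fold change -0.47, 95% interval -0.75 to -0.19, limma adjusted p = 0.133). Edem1, a lectin-like factor that directs glycoproteins to degradation, was at 840.0, 1575 and 1039 in PLKO_CTR and 1065, 1601 and 1944 in shTon_CTR, higher in each set (log2 fold change 0.42, 95% interval 0.0093 to 0.83, limma adjusted p = 0.285).

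Derl3 and Pdia5, a disulfide isomerase, had the largest estimates and the fewest reads. Derl3 was at 46.2, 44.4 and 2.60 normalised reads in shTon_CTR against 47.7, 81.6 and 16.6 in PLKO_CTR, and the value of set 3 in shTon_CTR stands for 2 reads (log2 fold change -1.08, 95% interval -2.11 to -0.050, limma adjusted p = 0.276). The authors' deposited table lists -0.39 for Derl3 (adjusted p = 0.583). Pdia5 was at 6.28, 5.29 and 65.5 and then 6.59, 13.2 and 159, higher in sets 2 and 3 and nearly level in set 1 (log2 fold change 0.83, 95% interval -0.045 to 1.71, limma adjusted p = 0.312). Adding 1 before taking log2 draws each ratio of such low values toward 0. Each set also counts equally in limma, so a set with very few reads weighs as much as the others. The within-set log2 ratios of Derl3 were -0.047, -0.86 and -2.29 in sets 1, 2 and 3. Estimates of such low genes may therefore be too small or too large.

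**Figure D3:**
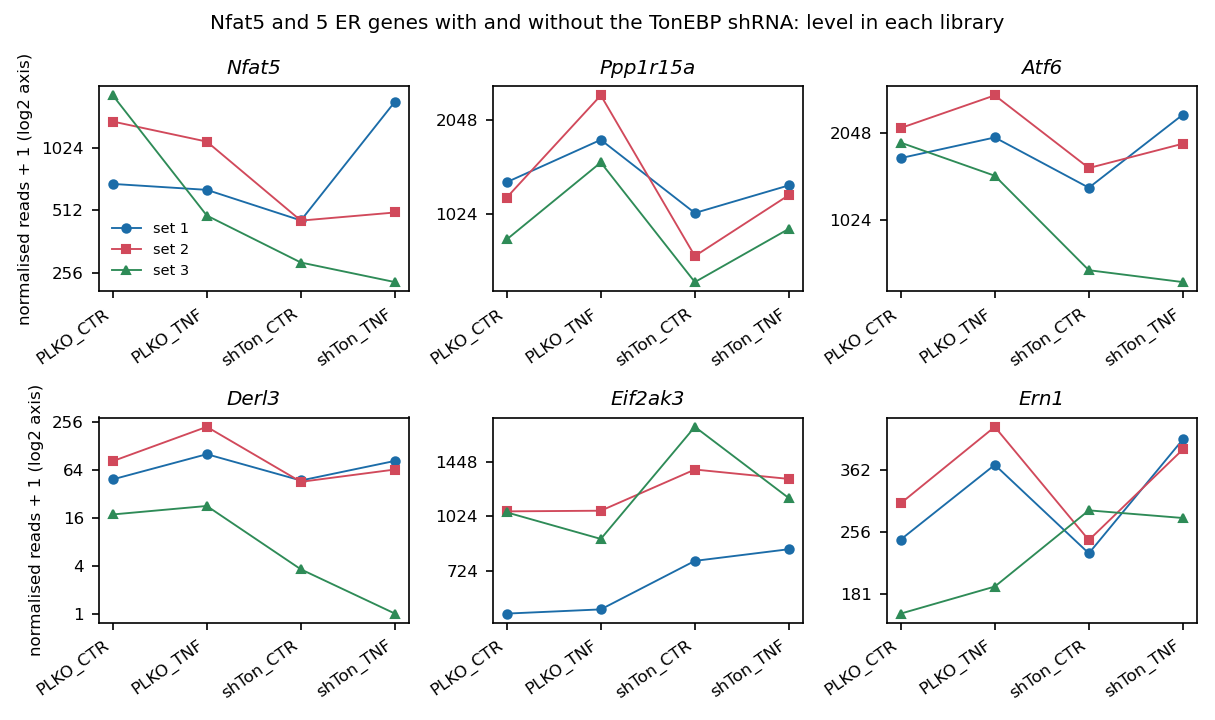
Normalised reads + 1 (log2 axis, a separate scale for each gene) of Nfat5, the target of the shRNA, and of 5 ER genes in each of the 12 libraries, with a line joining the libraries of a set. Nfat5 of set 1 is higher in shTon_TNF than in the other libraries of that set, Atf6 of set 3 is low in both shTon groups, and Eif2ak3 is higher in shTon_CTR than in PLKO_CTR in each set.

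Under TNF-a, knockdown was accompanied by lower values of most chaperones, and none passed the test. Of 35 genes, 27 were below 0 and 16 were lower in all 3 sets (45.7%, against 19.9% of all genes), with a median log2 fold change of -0.17 against 0.020 over all genes. None of the 35 passed in limma (0.254% of 12213 genes did). In limma 6 of the 35 had an unadjusted p under 0.05, as did 2079 of the 12213 genes, a similar share. DESeq2 called 1 of the 35 (Ppp1r15a; 3.09% of all genes) and edgeR none (0.237%). The library labelled shTon_TNF set 1, whose Nfat5 value goes against its label, is 1 of the 3. The median within-set log2 ratio of the 35 genes was -0.082, -0.35 and -0.10 in sets 1, 2 and 3. Without set 1, 3 genes passed in limma, all lower, where 4.04% of all genes passed. PLKO_TNF libraries enter this comparison and that of TNF-a in PLKO cells, so the 2 are not independent. All 12 skeletal muscle markers had a higher mean with the shRNA, but none was higher in all 3 sets and none passed in limma. Their sum went from 43806, 17242 and 171 in sets 1, 2 and 3 of PLKO_TNF to 81304, 16595 and 254 in shTon_TNF. The largest rise was in set 1, which holds the doubtful library. Of 7 fibroblast markers, 3 had a higher and 4 a lower mean (median log2 fold change -0.20). Among them Col3a1 passed in limma as higher (means of 4944 and 16185 normalised reads). The part of these markers was not tested.

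The median log2 fold change was -0.49 over the 4 HSP70 and HSP90 chaperones and exchange factors and -0.37 over the 5 J-domain proteins and partner, each of which was below 0. Hspa5 was at 39399, 57331 and 25909.7 in PLKO_TNF and 29347, 36496 and 19059 in shTon_TNF, lower in each set, with overlapping groups (log2 fold change -0.50, 95% interval -1.06 to 0.051, limma adjusted p = 0.337). Hyou1 was at 8054, 11226 and 4615 in shTon_TNF, nearly level in set 1 and lower in sets 2 and 3 (-0.47, 95% interval -0.96 to 0.0094). Creld2 was at 1145, 1687 and 1054, and its difference lay mostly in set 2 (-0.43, 95% interval -0.94 to 0.073). Manf was at 2201, 3653 and 2860.1, lower in sets 1 and 2 and higher in set 3 (-0.17, 95% interval -0.57 to 0.24). Sil1, at 515, 594 and 462, had a log2 fold change of -0.0053 (95% interval -0.38 to 0.37).

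Ppp1r15a came closest to the threshold. It was at 1265, 1178 and 919 normalised reads in shTon_TNF, below all 3 PLKO_TNF libraries (1769, 2454 and 1497). The log2 fold change was -0.74 (95% interval -1.14 to -0.35, limma adjusted p = 0.111). It passed without set 1 (limma, -0.88, adjusted p = 0.0288), with all 12 libraries in the limma fit (0.0323) and in DESeq2 (0.0291). The authors' deposited table lists -0.65 for it (adjusted p = 0.0307). Derl3 was at 82.2, 63.8 and 0, where 0 in set 3 allows up to 4.54 normalised reads (3 reads; counting error only). Its log2 fold change was -2.16 (95% interval -3.70 to -0.62, limma adjusted p = 0.183) and -3.11 without set 1 (limma, adjusted p = 0.00397). The within-set log2 ratios of Derl3 were -0.28, -1.78 and -4.50, and without set 3, which holds the library at 0, the fold change was -1.02 (limma, adjusted p = 0.230). In the authors' deposited table it is -0.25 (adjusted p = 0.742). Atf6 was at 2359, 1873 and 625, above its PLKO_TNF value in set 1 and below it in sets 2 and 3. This gave a log2 fold change of -0.50 (limma, adjusted p = 0.376) and -0.88 without set 1 (limma, adjusted p = 0.0348). Eif2ak3 was higher in each set, at 830.1, 1299 and 1149 (0.41, 95% interval 0.054 to 0.77, limma adjusted p = 0.244). Pdia5 was at 9.26, 11.7 and 64.7 in PLKO_TNF and 7.47, 19.6 and 167 in shTon_TNF (0.59, 95% interval -0.33 to 1.52). Xbp1, at 2289, 3563 and 3649, and Ern1, at 428, 405 and 276, had log2 fold changes of -0.031 (95% interval -0.40 to 0.34) and 0.20 (95% interval -0.26 to 0.65).

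In shTon cells, none of the 35 passed for TNF-a in limma (3.28% of 12339 genes did), in DESeq2 (5.24%) or in edgeR (3.27%). The estimates were smaller than in PLKO cells for the 5 genes that rose there. Those 5 were picked for passing in PLKO cells, which favours high estimates there, so this difference in size is not a test. An unadjusted p under 0.05 in limma was reached by 5 of 35 and by a larger share of all genes (2321 of 12339). The median log2 fold change of the 35 was 0.10, with 24 above 0, against -0.0060 over all genes. This comparison also holds the library labelled shTon_TNF set 1. All 12 skeletal muscle markers and 6 of 7 fibroblast markers had a lower mean with TNF-a here too, Myod1 and Krt8 passed as lower in limma, and their part was not tested. Creld2 went from 736, 1233 and 714 to 1145, 1687 and 1054, higher in each set (log2 fold change 0.55, 95% interval 0.27 to 0.83, limma adjusted p = 0.0601). Ppp1r15a was also higher in each set (0.50, 95% interval 0.20 to 0.81, limma adjusted p = 0.0951), and without set 1 it passed in limma (0.61, adjusted p = 0.0217). It was then the only one of the 35 to pass (9.05% of all genes). Ern1 was higher in sets 1 and 2 and slightly lower in set 3 (0.53, 95% interval 0.036 to 1.02). Manf was higher in each set (0.42, 95% interval 0.12 to 0.72), and Sil1 lower in each (-0.39, 95% interval -0.69 to -0.091). Hspa5 was at 0.33 (95% interval -0.036 to 0.70) and Hyou1 at 0.21 (95% interval -0.18 to 0.60).

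Whether the effect of TNF-a differed between shTon and PLKO cells was tested as the interaction over all 12 libraries. These include the one labelled shTon_TNF set 1, and the estimates here are given with it. None of the 35 genes passed, nor did any of the 12310 genes tested (0%), in limma, edgeR or DESeq2. An unadjusted p under 0.05 in limma was reached by 219 of all genes and by none of the 35. The estimates were below 0 in 26 of 35 genes, which means a lower value of the TNF-a log2 fold change in shTon cells, with a median of -0.16 against 0.0015. The largest were for Derl3 (-1.12, 95% interval -3.40 to 1.17), Hyou1 (-0.41, -0.94 to 0.12) and Hspa5 (-0.38, -0.87 to 0.11). For Creld2 the interaction was -0.36 (-0.94 to 0.22), for Ppp1r15a -0.28 (-0.76 to 0.20), for Manf -0.094 (-0.50 to 0.31) and for Sil1 0.074 (-0.29 to 0.44). These intervals include both no difference and, for Hspa5, Hyou1 and Creld2, a loss of the whole rise seen in PLKO cells. Hspa5, Hyou1 and Creld2 had passed in the PLKO libraries, which the interaction also uses. Among the sensors the estimates were 0.051 for Ern1 (-0.73 to 0.83), 0.25 for Atf6 (-0.68 to 1.18), -0.15 for Eif2ak3 (-0.61 to 0.32) and 0.029 for Xbp1 (-0.30 to 0.36).

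**Figure D4:**
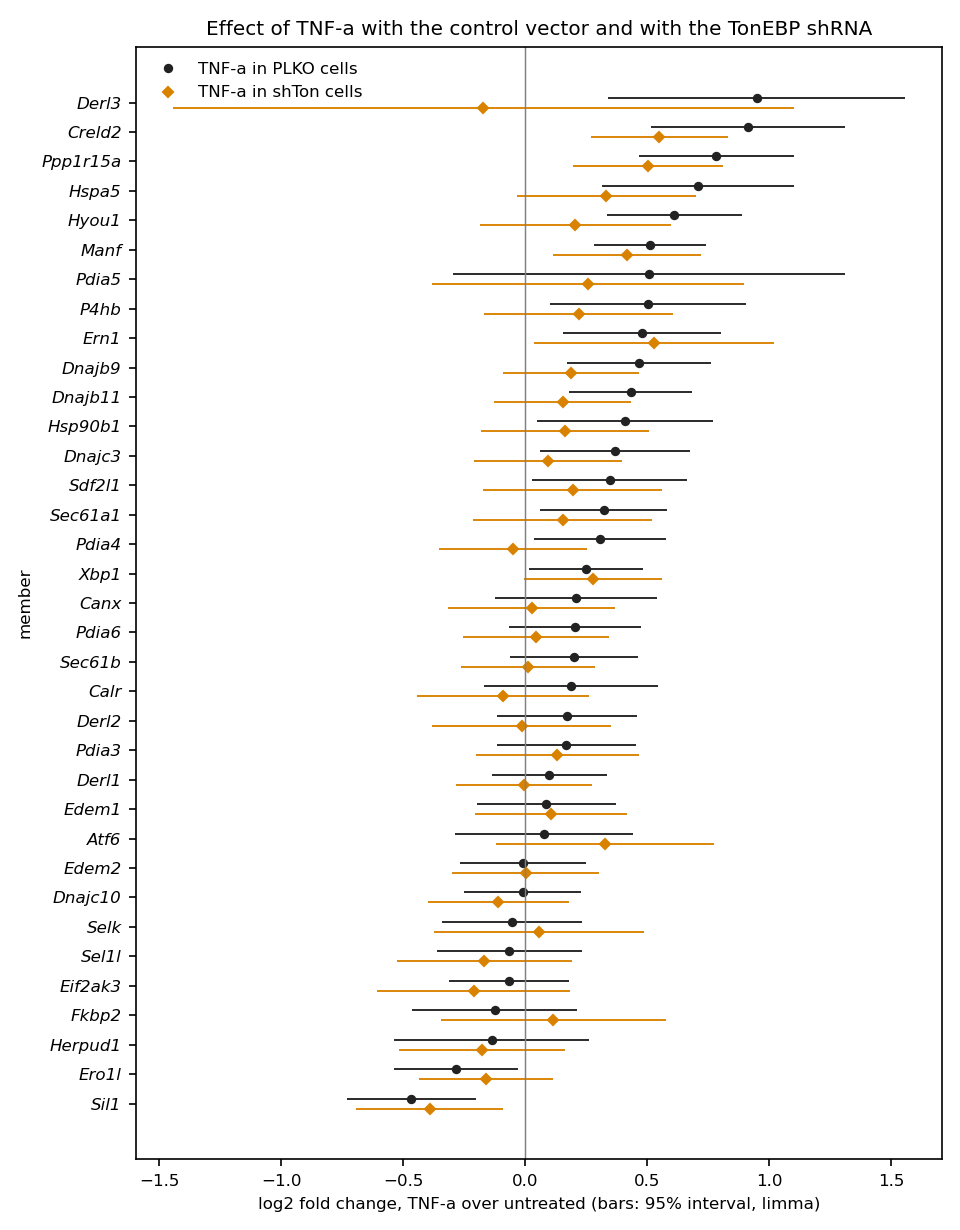
Log2 fold change of TNF-a over untreated (horizontal axis) for 35 ER genes in PLKO cells (circles) and shTon cells (diamonds), with 95% intervals from limma; genes are ordered by the value in PLKO cells. Creld2, Ppp1r15a, Hspa5, Hyou1 and Manf lie above 0 in PLKO cells and Sil1 below it, and the intervals of the 2 backgrounds overlap for every gene.

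More of the ER genes differed among the replicate sets than with TNF-a or knockdown. In limma's F test, which uses all 12 libraries, 28 of 35 (80.0%) differed among sets, against 45.4% of all genes, and 27 of 35 were highest in set 2, as were 26.3% of all genes. The median range between the highest and the lowest set was 0.76 on the log2 scale for the 35 genes and 0.49 for all genes. Hspa5 deviated by 0.0015, 0.47 and -0.47 from the mean of sets 1, 2 and 3, Hyou1 by -0.19, 0.60 and -0.41 and Manf by -0.31, 0.51 and -0.20. The collagen-linked isomerase P4hb followed another order (-0.55, 0.25 and 0.30), with set 1 the lowest, as did Pdia6 (-0.54, 0.23 and 0.32). Pdia5 and Derl3 were furthest apart and in opposite directions: Pdia5 deviated by -1.41, -0.83 and 2.24 and Derl3 by 1.02, 1.39 and -2.41. Ero1l (-0.062, 0.046 and 0.016, limma adjusted p = 0.639) and Sil1 (0.024, 0.11 and -0.14, limma adjusted p = 0.134) were among the 7 that did not pass. Summed skeletal muscle markers were highest in set 1 and lowest in set 3, and the highest summed fibroblast markers were in set 2 (92489 to 185893 normalised reads, against 56344 to 107899 in set 1 and 28034 to 41085 in set 3). Their part in it was not tested.

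**Figure D5:**
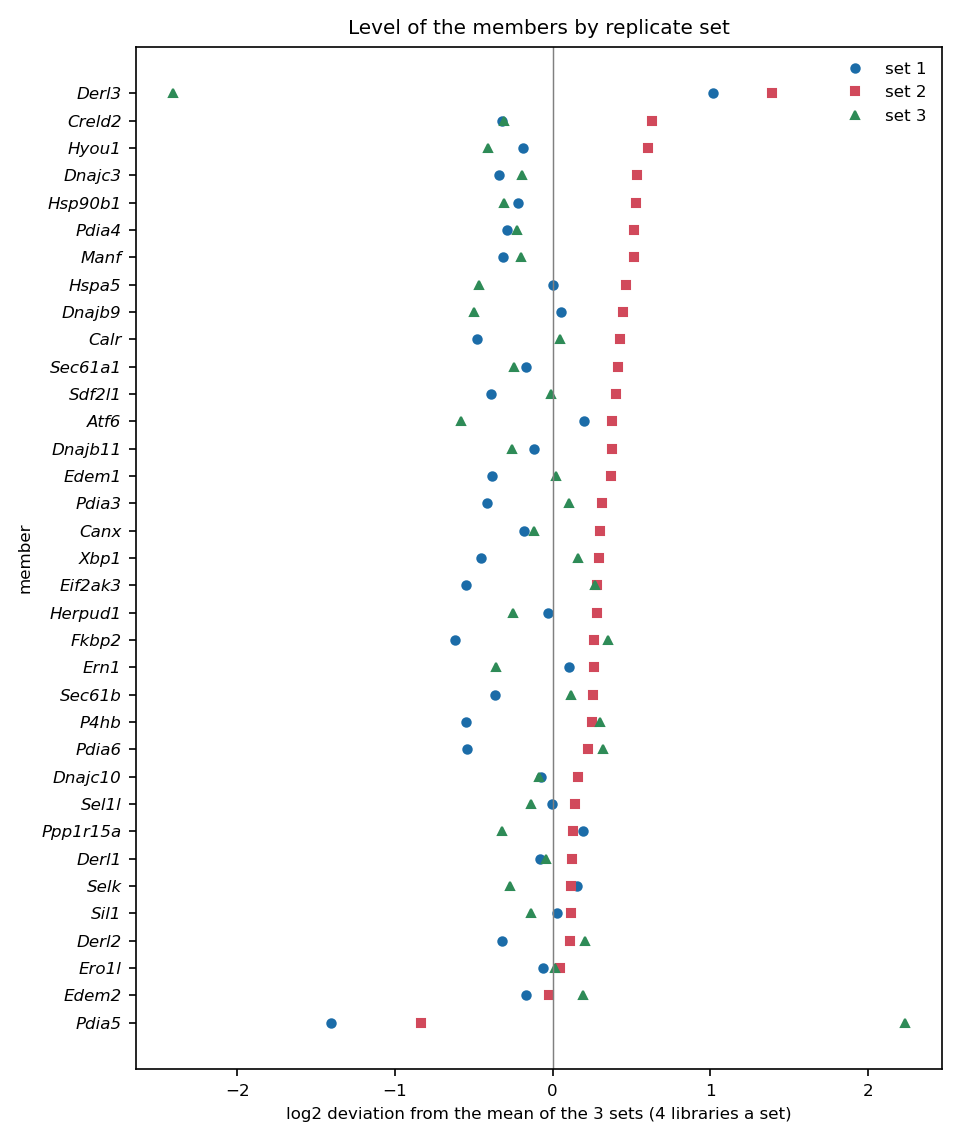
Log2 deviation of each replicate set (4 libraries, 1 of each group) from the mean of the 3 sets, for 35 ER genes ordered by set 2. Set 2 is the highest in 27 genes, and Derl3 and Pdia5 lie furthest out, in opposite directions.

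Genes of the wider pathway, in 7 lists chosen by function, are given by their counts. In limma none of 26 further ER folding factors or 15 translocation and signal peptide genes passed in any of the 5 comparisons. The same held for 15 genes of N-glycosylation and glucose trimming. It also held for a list of 12 ER stress transducer relatives, proteases, and signalling and cell death genes such as Traf2 and Bax. Of all genes, 9.62% passed with TNF-a in PLKO cells, 3.28% with TNF-a in shTon cells and 0% for the interaction. With knockdown, 0.113% passed without TNF-a and 0.254% with it. Of 18 further degradation genes, Ubxn4, an ER membrane protein of this pathway, fell with knockdown under TNF-a (log2 fold change -1.25, SE 0.17, limma adjusted p = 0.0389). Without set 1, which holds the doubtful library, it was -1.42 (limma adjusted p = 0.00110), and the call was lost without set 3 (limma adjusted p = 0.0557). Of 14 genes of the ATF4 and PERK branch, 1 rose and 2 fell with TNF-a in PLKO cells, with a median of 0.034. Slc7a11, the cystine transporter, rose in PLKO cells (2.15, SE 0.33, limma adjusted p = 0.0157) and in shTon cells (1.05, SE 0.13, limma adjusted p = 0.00990), and fell with knockdown under TNF-a (-1.58, SE 0.21, limma adjusted p = 0.0389). The last call held without set 1 (-1.87, limma adjusted p = 7.82e-05) and was lost without set 3 (limma adjusted p = 0.0595) and in edgeR (adjusted p = 0.0586). Nupr1, a stress-induced nuclear protein (-1.05, SE 0.21), and Vldlr, a lipoprotein receptor (-0.85, SE 0.17), fell with TNF-a in PLKO cells (limma adjusted p = 0.0308 and 0.0315). Of 14 heat shock genes outside the ER, the mitochondrial chaperonin Hspd1 rose (0.63, SE 0.12) and the small heat shock protein Hspb1 fell (-0.66, SE 0.095) with TNF-a in PLKO cells (limma adjusted p = 0.0239 and 0.0132). Without set 2 the calls of Nupr1, Vldlr and Hspd1 were lost (limma adjusted p = 0.0881, 0.0888 and 0.0778). All other genes of these lists missed the threshold in the 5 comparisons.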

How the data were processed

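Novoalign 2.08.01, DESeq2 (no version) and genome build rn5 are named per the submitters' processing notes; counter, annotation, strand and treatment of shared reads are not stated there. Each deposited table holds a normalised signal for 6 libraries and is scaled by itself. The authors also deposited their own log2 fold changes and adjusted p-values, which are used only where named. Every value was a whole multiple of 1 read within 0.001 (100% of values), so reads were recovered and the 3 tables joined. After joining, 44 rows without a gene name (0.0485% of reads) were kept in the scaling, and in the fits where they passed the filter on low values.

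Levels in the text are recovered reads over DESeq2 size factors of all 12 libraries, within 0.0128 of the deposited scaling on the log2 scale, and are not compared between genes. The main test was limma 3.58.1 (R 4.3.3) on log2(value + 1) with a mean-variance trend and the set as a block, for genes whose mean reached 10 normalised reads, with Benjamini-Hochberg adjustment over all genes at 0.05. Deposited pairs were fitted on deposited values, and TNF-a in shTon cells and the interaction on the joint values. The fits were tested on simulated data. For TNF-a in PLKO cells, knockdown without and with TNF-a, TNF-a in shTon cells and the interaction, limma called 1190, 14, 31, 405 and 0 genes, and on recovered reads with the same block edgeR 4.0.16 called 1205, 18, 29, 403 and 0 and DESeq2 1.42.0 called 1352, 403, 360, 623 and 0.

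The sample titles number the sets, and libraries of 1 set deviated from their group means together (correlations of 0.609 to 0.889 in 18 pairs, against -0.741 to 0.180 in 36 pairs of different sets), so the set is in the main fit. The genes, lists and tests were chosen with earlier results of these data known. Every library's value is given for genes that passed in any comparison, the 3 largest fold changes of each comparison, Hspa5, Xbp1, Atf6, Ern1, Eif2ak3 and Nfat5; the rest are given by role. Promoters are RefSeq's, on GRCr8. Protein sequences were not used here.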

Additional observations from a re-analysis of the deposited data

How the results depend on the processing

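The number of the 35 genes past the threshold was recomputed under up to 11 other settings per comparison. For TNF-a in PLKO cells it was 6; it was 0 with no replicate block, 0 without the mean-variance trend and 1 to 5 with a set left out, and over all genes 1190 became 0, 55 and, without set 2, 545, and 696 with all 12 libraries. For knockdown without TNF-a it was 0, and 1 in DESeq2 (14 and 403 over all genes). For knockdown with TNF-a it was 0, with 1 in the fit of all 12 libraries, 1 in DESeq2 and 0 to 3 with a set left out (31, 444, 360 and, without set 1, 488 over all genes). For TNF-a in shTon cells it was 0, and 0 to 1 with a set left out (405 over all genes, 1105 without set 1). The interaction stayed at 0 in every setting run, and the difference among sets at 27 to 28. With no replicate block, 0 of 35 genes passed in each of the 5 comparisons, while every pair of same-set libraries deviated together, so the unpaired fit counts the spread between sets as error. Of 699 recomputed fold changes of 13 genes, 636 kept direction and side of the threshold, 26 lost it, 15 gained it and 22 changed sign, none of them past the threshold in either fit; the causes were not tested. The sign changes were these. For TNF-a in PLKO cells, Atf6 ranged from -0.072 to 0.30 and Eif2ak3 from -0.12 to 0.021 with a set left out. For knockdown without TNF-a, Ern1 ranged from -0.21 to 0.36. For knockdown with TNF-a, Nfat5 ranged from -1.09 to 0.18, Sil1 from -0.083 to 0.046 and Xbp1 from -0.098 to 0.069, and Sil1 was 0.0033 with TMM scaling and 0.0036 in edgeR. For TNF-a in shTon cells, Derl3 ranged from -0.67 to 0.67, Eif2ak3 from -0.37 to 0.010 and Nfat5 from -0.091 to 1.01, and Derl3 was 0.60 in edgeR and 0.47 in DESeq2. For the interaction, Ern1 ranged from -0.082 to 0.22, Manf from -0.21 to 0.025, Sil1 from -0.055 to 0.24 and Xbp1 from -0.048 to 0.14, and Ern1 was -0.016 in DESeq2. The 6 genes called outside the 35 all lost their calls with no replicate block and without the mean-variance trend; Ubxn4 and Slc7a11 for knockdown with TNF-a also lost them with a pseudocount of 0.1, and Nupr1, Vldlr and Hspd1 for TNF-a in PLKO cells, and Slc7a11 for TNF-a in shTon cells, with all 12 libraries in the fit. Depth limits Derl3 and Pdia5 most, whose lowest libraries held few reads.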

Other observations

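Genes outside the 36 whose RefSeq promoter window holds the ER stress element or its second form were looked up after the members' values were known. Of 27 such genes, 14 were tested, 2 were higher with TNF-a in PLKO cells at an adjusted p under 0.05 in limma and none was lower, with a median log2 fold change of 0.041. Over all genes tested, 4.97% were higher. Zfand2a, an arsenite-inducible zinc finger protein linked to the proteasome, was at 1771 ± 1471 normalised reads in PLKO_CTR and 4742 ± 2159.8 in PLKO_TNF (SD, n = 3), a log2 fold change of 1.64 (SE 0.28, limma adjusted p = 0.0206). In shTon cells its log2 fold change was 0.77 (SE 0.12, limma adjusted p = 0.0203). Ggct, an enzyme of glutathione turnover, was at 109 ± 41.8 and 189 ± 102 (SD, n = 3), a log2 fold change of 0.71 (SE 0.17, limma adjusted p = 0.0456).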
